A study of Drosophila melanogaster with 6 samples.

Results

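The broad peaks of the BEN domain protein Insensitive (Insv) that lie in groups of moderate size along the fly chromosomes were examined here. Neighbouring peaks of the deposited list were joined into a region when their facing edges lay at most 5000 bp apart, and regions of 2 to 19 peaks on the arms X, 2L, 2R, 3L, 3R and 4 were kept. Peaks of at least 1500 bp in these regions were called broad, which gave 1113 broad peaks among the 9062 peaks of 1608 regions. The whole list holds 13016 peaks, 12693 of them on these arms. Isolated peaks and regions of 20 or more peaks thus lie outside the set.

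The list comes from chromatin immunoprecipitation followed by sequencing (ChIP-seq) in Kc167 cells, a line derived from late fly embryos. There were 3 ChIP samples and 3 input samples, all of genotype se/e and female per the labels, and no sample carried a treatment. The antibody was a rabbit polyclonal serum against Insv that had been pre-adsorbed with early fly embryos. All samples are of 1 cell line, and the single list has no values per library, so no comparison between samples and no replicate error can be given, and the depth of the libraries is unknown.

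Insv is a nuclear protein that binds DNA through its BEN domain and acts as a corepressor of transcription, best known for restraining target genes of the Notch pathway during the development of the peripheral nervous system. In ChIP-seq a protein held at a single site usually yields a short peak. A broad peak is an unbroken stretch of enrichment, which may hold 1 site or several. The list gives a start, an end and a score for each peak, but no summit, so single sites inside a broad peak cannot be separated. Coordinates are on FlyBase release 5. No release 5 sequence or annotation was used here, and the peaks are therefore described by position and not by gene.

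The members were chosen by their width and by the spacing of peaks. Width was set by the same peak caller as the score, so scores are given as a description without a test. The score is the authors' own, on a scale that the sources used here do not name, and it is used here only to order and describe peaks of this list. Ratios of scores and scores per kb depend on that scale and are descriptions of the listed values only. Intervals are 95% intervals over peaks of 1 list, cover counting error only and treat neighbouring peaks as independent.

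Peaks of 1500 bp or more made up 12.5% of all peaks on the arms and 12.3% of the peaks in regions of 2 to 19. The broad peaks had a median width of 2041 bp (95% interval from 2004 to 2105 bp), and the middle 50% ran from 1724 to 2651 bp. The widest measured 8571 bp. By class, 523 were under 2000 bp wide, 402 were from 2000 to under 3000 bp and 188 reached 3000 bp or more. Their scores had a median of 34.9 (33.8 to 35.7) with quartiles of 26.5 and 48.7, and ran from 12.7 to 619. The upper tail was long, with 265 broad peaks (23.8%, exact interval 21.3 to 26.4) above a score of 50 and 52 (4.67%, 3.51 to 6.08) above 100. Of the 4065 narrower peaks in regions that also held a broad one, 93 (2.29%, 1.85 to 2.80) scored above 50 and 11 (0.271%) above 100. Nearly every broad peak, 1106 of 1113, scored above the median of the list on the arms (15.78), as did 49.2% of all peaks on the arms. The 7 exceptions were short for the set, at 1505 to 1882 bp.

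Single peaks just inside and just outside the threshold overlapped in score, while the median was higher inside. The 142 peaks from 1500 to under 1600 bp had a median score of 30.6 (27.9 to 33.8), and the 148 peaks from 1400 to under 1500 bp had a median of 24.9 (23.3 to 27.2). Single scores ran from 12.7 to 179 inside and from 14.2 to 253 outside. Per kb of width the medians were 19.9 (17.8 to 21.5) inside and 17.3 (16.1 to 18.6) outside, with overlapping intervals. The plot of score against width shows a continuous cloud across 1500 bp.

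**Figure D1:**
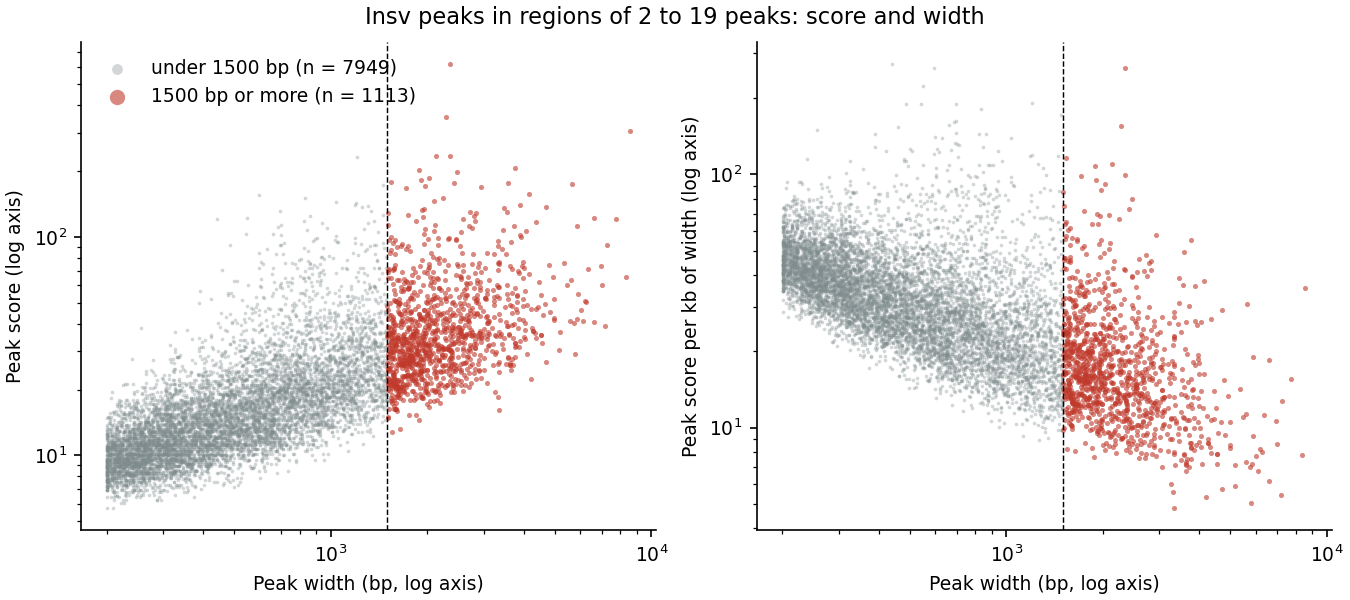
Each point is 1 peak of a region of 2 to 19 peaks, with width in bp on the x axis and the authors' score (left) or score per kb of width (right) on the y axis, all axes logarithmic. Broad peaks (red, 1113) lie to the right of the dashed line at 1500 bp, have higher scores than most of the 7949 narrower peaks (grey) and lower scores per kb.

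The strongest broad peak had few close neighbours. It lay on 2R from 10027900 to 10030247, was 2348 bp wide and scored 618.73, the highest score on the arms. Its region held 1 other peak, 212 bp wide with a score of 10.41 and 3839 bp to the left. The next peak to the right lay 5254 bp away, just beyond the joining distance of 5000 bp, and so was not counted in the region. Within its region, the highest-scoring peak of the arms was thus a single broad peak beside a faint one.

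The second lay on 3L from 21194381 to 21196665, with a width of 2285 bp and a score of 354.3, and was the only broad peak of a region of 7. The 6 narrower peaks around it were 213 to 966 bp wide and scored 10.19 to 26.54. No narrower peak of that region came near the score of the broad one.

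The third lay on X from 15350006 to 15358576 and was also the widest of all the broad peaks, at 8571 bp with a score of 304.89. Its region held 14 peaks, which covered 23129 of 27746 bp. Of the other peaks there, 2 were broad (2563 bp with a score of 38.11 and 3577 bp with a score of 27.87) and 11 were narrower, with scores of 10.41 to 40.22. Here the strong peak sat in a nearly continuous stretch of weaker enrichment, unlike the strongest peaks on 2R and 3L.

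**Figure D2:**
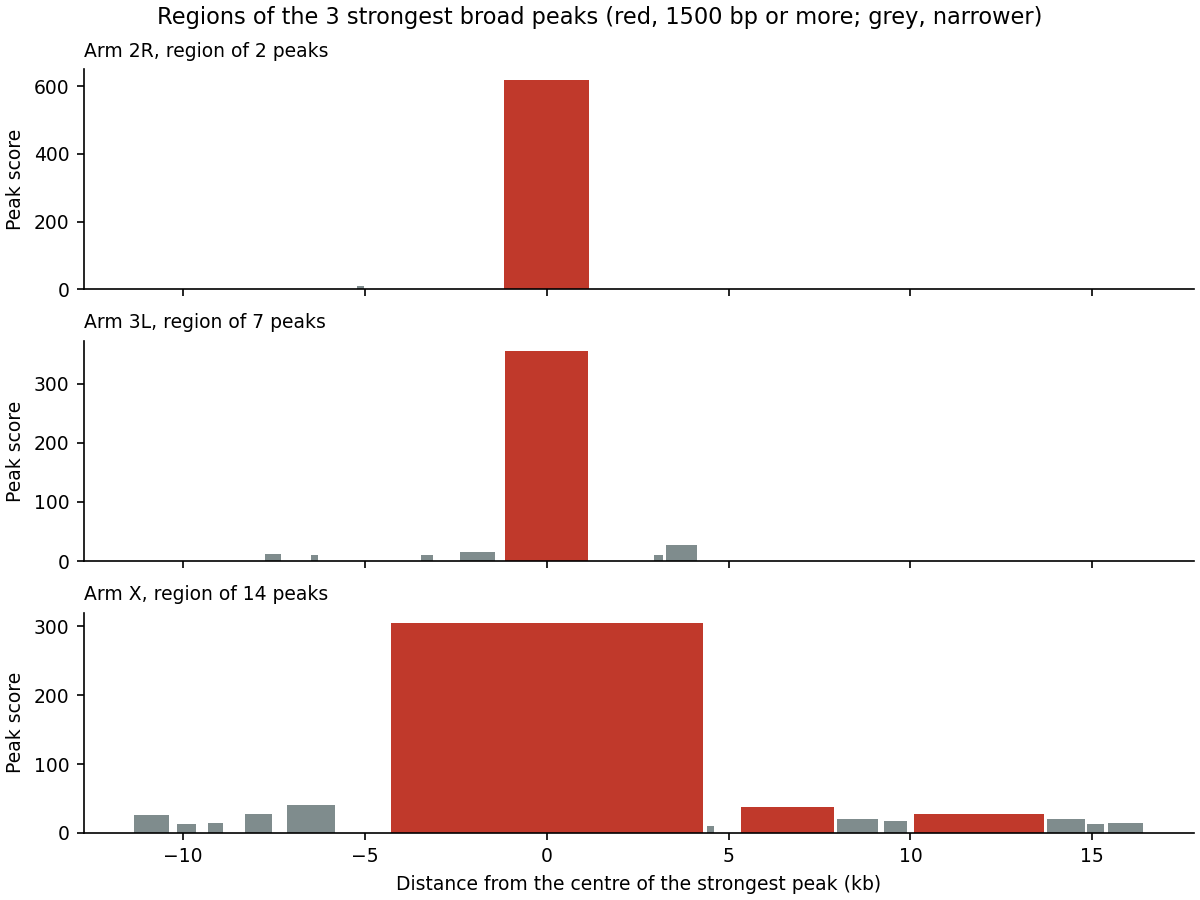
Peaks of the regions that hold the 3 strongest broad peaks, drawn to scale by distance in kb from the centre of the strongest peak (x axis) and by the authors' score (height, with a separate linear axis for each region). Broad peaks are red and narrower peaks grey, and in each region 1 broad peak, with a score of 618.73, 354.3 or 304.89, exceeds the rest.

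The remaining peaks among the 10 strongest scored 181.22 to 235.17 and lay on 4 arms. On X these were the peaks from 19047041 to 19049175 (score 235.17) and from 1816060 to 1817944 (202.81). On 3L it was the peak from 5137646 to 5139996 (234.45). On 3R they were the peaks from 24862136 to 24865894 (206.26), 5933883 to 5936349 (197.34) and 277833 to 279863 (186.19). On 2L it was the peak from 16524874 to 16526782 (181.22). The only broad peak of chromosome 4, from 527541 to 529368, scored 69.36 and closed a region of 4 peaks. Among these 10, the peaks were the only broad one of their region in 5 cases, and the others shared the region with 1 to 3 more.

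Wide and strong were not the same thing within the set. The second widest peak, 8344 bp on 2R from 16159539 to 16167882, scored only 65.3, and the third, 7730 bp on X from 9498433 to 9506162, scored 120.83. The fourth spanned 7252 bp on 2R (13674810 to 13682061) with a score of 92. The fifth covered 7183 bp on 3L (5127560 to 5134742) with a score of 39.07, and lay in the same region as the strong peak at 5137646 (score 234.45). Spearman's rho of score with width was 0.31 over the 1113 broad peaks, while it was 0.72 across the 4065 narrower peaks of the same regions. Both are descriptions over peaks that share 1 list and 1 peak caller, and the broad set spans a smaller part of the range of widths on a log scale.

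Broad peaks scored higher than the narrower peaks beside them. In the 620 regions that hold both kinds, the 1107 broad peaks had a median score of 34.9 (33.8 to 35.7) and the 4065 narrower peaks a median of 14.5 (14.4 to 14.9), a ratio of 2.40 (2.27 to 2.49). Region by region, the median score of the broad peaks was above that of the narrower peaks in 604 of 620 regions (97.4%, exact interval 95.8 to 98.5). Scores above 100 were reached by 11 of the 4065 narrower peaks (0.271%, 0.135 to 0.484). The other 6 broad peaks lay in 3 regions made of a broad pair alone, with scores of 16.32 to 36.79.

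Most regions had a broad peak at the top. The highest score belonged to a broad peak in 468 of the 620 regions (75.5%, 71.9 to 78.8), to a narrower peak in 148, and was tied between both kinds in 4. Of all peaks in these regions, 12.1% held the highest score of their region. Among broad peaks the share was 42.6% (472 of 1107, 39.7 to 45.6) and among narrower peaks 3.74% (152 of 4065, 3.18 to 4.37). The lead of the broad peaks was moderate, since the highest broad score was a median of 1.50 times the highest narrower score (1.40 to 1.57).

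Where a region held exactly 1 broad peak, that peak scored highest in 247 of 352 regions (70.2%, 65.1 to 74.9). The share was 84.5% (77.1 to 90.3) in regions of 2 to 4 peaks, 67.8% (59.7 to 75.1) in regions of 5 to 9 and 49.3% (37.2 to 61.4) in regions of 10 to 19. A larger region offers more narrower peaks that can score higher, so the fall with region size is in part a matter of counting.

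The order turned round once the score was divided by width. Broad peaks had a median of 15.8 score units per kb (15.4 to 16.2) and the narrower peaks of the same regions 31.7 (31.2 to 32.2), a ratio of 0.498 (0.476 to 0.520). The median per kb was lower for the broad peaks in 556 of 620 regions (89.7%, 87.0 to 92.0), and a broad peak had the highest score per kb of its region in 47 (7.58%, 5.62 to 9.95). Width enters this measure directly, so a fall with width is partly built in.

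By width, the median score of the broad peaks went from 30.3 (29.2 to 32.0) below 2000 bp to 36.4 (34.9 to 38.1) from 2000 to under 3000 bp and 44.5 (41.0 to 48.7) at 3000 bp or more. The score per kb fell over the same classes, from 17.5 (16.6 to 18.5) to 15.2 (14.3 to 16.1) and 11.2 (10.7 to 12.6). Below the threshold, peaks of at least 1000 bp had a median score of 24.2 (23.3 to 24.9) and 20.1 per kb (19.4 to 20.8), so the broad peaks continue the course of the narrower ones.

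A small group kept a high score per kb in spite of its width. There were 39 broad peaks above 50 per kb (3.50%, 2.50 to 4.76), with a median width of 1909 bp. The narrower peaks of the same regions had an upper quartile of 41.9 per kb, and their share above 50 was not counted. The 5 highest were the strongest peak on 2R (263.5 per kb), the strongest on 3L (155.1), a peak on 3R from 1107837 to 1109371 (score 178.57, 116.3 per kb), and on X the peaks from 19047041 to 19049175 (110.1) and from 1816060 to 1817944 (107.6). At the other end 141 broad peaks (12.7%, 10.8 to 14.8) were under 10 per kb, with a median width of 2938 bp and a median score of 24.6. Only 2 of the 4065 narrower peaks were that low, and part of this contrast is built in. No peak on the arms scored below 5.73, so a peak at the narrower median of 480 bp could not fall under 10 per kb.

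The 5 lowest were long peaks with low scores for their width. They lay on X from 1246673 to 1250007 (3335 bp, score 16.05, 4.81 per kb), on 3R from 11803197 to 11808988 (5792 bp, 29.23, 5.05 per kb) and on X from 9171319 to 9175522 (4204 bp, 22.39, 5.33 per kb). The others were the 7183 bp peak on 3L named above (5.44 per kb) and another on 3L from 21624039 to 21627357 (3319 bp, 18.54, 5.59 per kb). All 5 were over 3000 bp wide, and 4 of them scored below the median of the broad peaks.

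**Figure D3:**
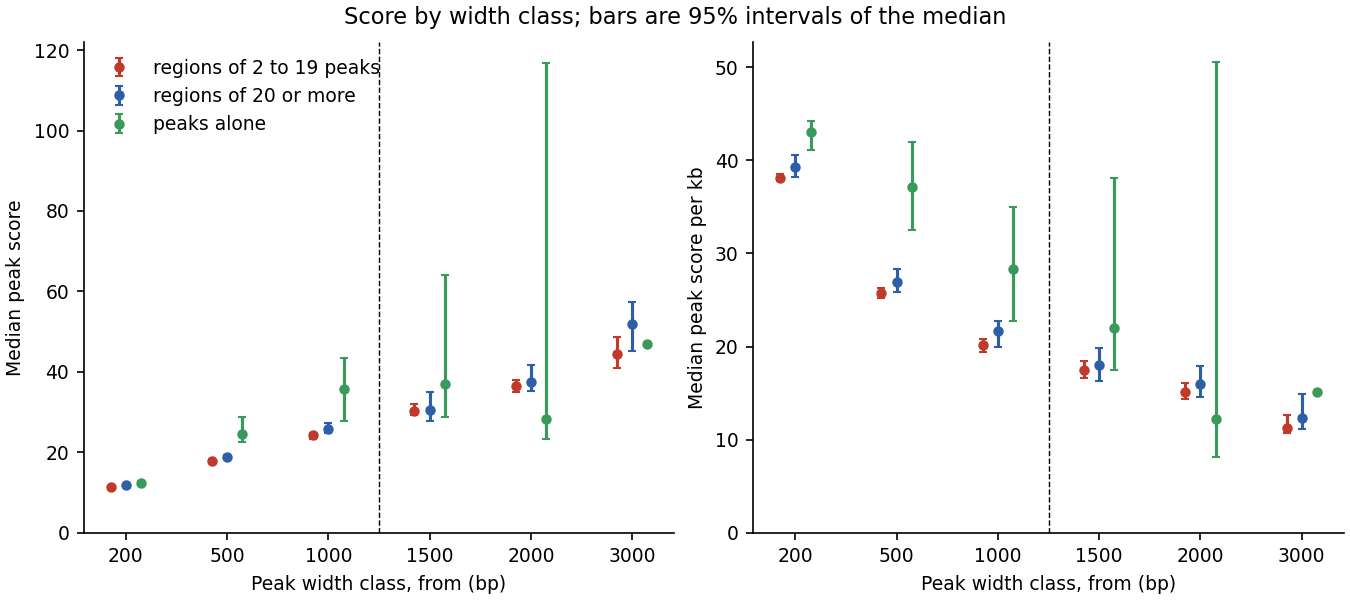
Median score (left) and median score per kb (right) by width class (labelled by its lower bound in bp), for peaks in regions of 2 to 19 (red), in regions of 20 or more (blue) and alone (green), with 95% intervals of the median. Broad classes are to the right of the dashed line. The 4 lone peaks of 3000 bp or more are too few for an interval. In regions of 2 to 19 the score rises from 30.3 to 44.5 over the broad classes, and the score per kb falls from 17.5 to 11.2.

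Broad peaks lay at the ends of their regions about as often as narrower ones. In regions of 3 or more peaks with both kinds, 23.2% of the broad peaks (247 of 1064, 20.7 to 25.9) and 22.6% of the narrower peaks (907 of 4022, 21.3 to 23.9) were first or last, where 22.7% of all peaks of these regions were. The intervals overlapped in regions of 3 to 4 peaks (55.7% of broad against 56.4% of narrower), of 5 to 9 (29.1% against 29.8%) and of 10 to 19 (13.3%, 10.6 to 16.3, against 15.6%, 14.2 to 17.1). Score and width did not separate the positions either. Broad peaks at an end had a median score of 34.9 (32.4 to 36.4) and those inside the region 34.9 (33.8 to 36.0), with median widths of 2024 and 2083 bp.

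The number of flanking peaks was close over all regions and differed slightly by region size. Within 5000 bp of either edge a broad peak had 4.39 ± 1.96 other peaks (SD over 1107 peaks) and a narrower peak of the same regions 4.40 ± 1.85 (SD over 4065 peaks), with a median of 4 for both. In regions of 10 to 19 peaks the means were 5.27 ± 1.88 for broad and 4.95 ± 1.86 for narrower peaks, in those of 5 to 9 they were 4.02 ± 1.41 and 3.84 ± 1.38, and in those of 2 to 4 they were 1.95 ± 0.808 and 2.11 ± 0.772 (SD over peaks). Peaks without a broad one in their region had 3.10 ± 1.90 (SD over 3884 peaks). That mean was not split by region size, and 708 of the 985 such regions held only 2 to 4 peaks. The gap to the next peak of the region had a median of 502.5 bp beside broad peaks (473 to 544) and 499 bp beside narrower ones (478 to 526). The smallest gap on the arms was 50 bp, and gaps under 100 bp made up 12.2% (10.7 to 13.7) beside broad and 13.6% (12.8 to 14.4) beside narrower peaks. Gaps inside the regions were thus close for both kinds. They are at most 5000 bp by the joining rule, and gaps beyond the ends of regions are left out. A gap between a broad and a narrower peak also counts for both kinds, so part of this likeness is built in.

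The peaks next to a broad peak were slightly larger than other narrower peaks. Of all peaks in the regions with both kinds, 34.4% stood next to a broad peak. The 1475 narrower peaks in that place had a median width of 514 bp (486 to 540) and a median score of 15.5 (15.0 to 15.8). The 2590 narrower peaks of the same regions elsewhere had 464.5 bp (446 to 481) and 14.2 (13.9 to 14.5). Narrower peaks of regions without a broad peak were smaller still, at 429 bp (417 to 440) and 13.5 (13.2 to 13.7). These differences exceed the intervals but are small beside the quartiles of each set, which for the first ran from 313.5 to 827 bp. The sides of a broad peak did not differ beyond their intervals, with median widths of the next peak of 653 bp (605 to 701) on the left and 621 bp (582 to 664) on the right.

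Close to the edge, more sequence lay in peaks under 1500 bp beside broad peaks than beside narrower ones. From 750 to 1000 bp beyond the edge 29.7% of the bases were covered by such peaks beside broad peaks and 25.7% beside narrower peaks of the same regions. From 4750 to 5000 bp the shares were 15.7% and 15.6%. Over the whole 5 kb they were 20.3% and 18.8%. A narrower peak has on average 0.985 broad peaks in its flanks and a broad peak 0.771, and bases taken up by a broad peak cannot be covered by a narrower one, so part of this gap follows from the counting. With peaks of every width counted, the shares were 41.1% beside broad and 40.1% beside narrower peaks at 750 to 1000 bp, and 30.5% and 34.1% at 4750 to 5000 bp. The covered length of both flanks then had a median of 3398 bp (3249 to 3510) for broad peaks and 3562 bp (3497 to 3623) for narrower ones.

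**Figure D4:**
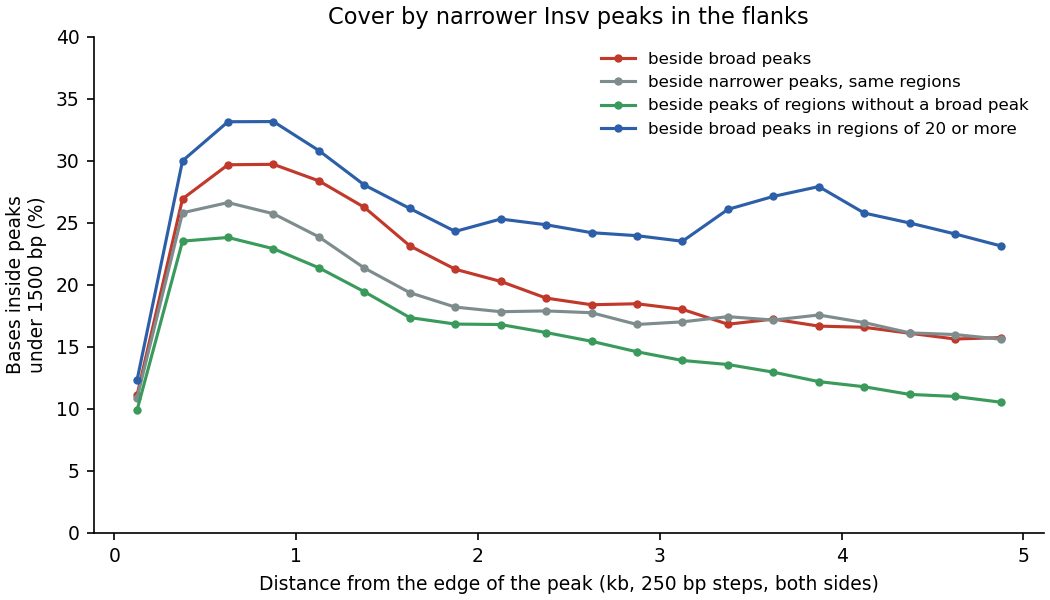
Share of bases inside peaks under 1500 bp (y axis, %) by distance in kb from the edge of a peak (x axis, both sides together), for the broad peaks (red), the narrower peaks of the same regions (grey), peaks of regions of 2 to 19 with no broad peak (green) and broad peaks in regions of 20 or more (blue). The red line is above the grey one near the edge (29.7% against 25.7% at 750 to 1000 bp) and meets it by 5 kb.

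Most regions with a broad peak held only 1, though 761 of the 1113 broad peaks shared their region with another. Of the 623 regions with a broad peak, 352 held 1, 143 held 2, 72 held 3, 33 held 4 and 23 held 5 or more, with a maximum of 8. In regions with both kinds, 27.6% of the broad peaks (305 of 1107, 24.9 to 30.3) stood next to another broad one. Among the narrower peaks 36.3% (34.8 to 37.8) stood next to a broad peak, and among all peaks 34.4%. Where a region has only 1 broad peak, only narrower peaks can stand next to it, so part of this gap follows from the counting. There were 170 pairs of broad peaks with no other peak between them, at a median gap of 485.5 bp (356 to 608). Within a pair the higher score was a median of 1.39 times the lower (1.31 to 1.47). Broad peaks that shared their region had a median score of 34.9 (33.5 to 36.0), and those that were the only broad one 34.4 (32.4 to 36.4).

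Larger regions held a broad peak more often, while the median score over broad peaks stayed close. A broad peak was found in 16.7% of the regions of 2 to 4 peaks (142 of 850, 14.3 to 19.4), in 51.7% of those of 5 to 9 (248 of 480, 47.1 to 56.2) and in 83.8% of those of 10 to 19 (233 of 278, 78.9 to 87.9). Per peak, the broad share was 6.68% (5.70 to 7.77), 12.3% (11.2 to 13.5) and 15.8% (14.6 to 17.1). The median score of the broad peaks stayed at 35.3 (31.7 to 37.5), 34.9 (32.4 to 36.8) and 34.6 (33.1 to 36.0). Their median width was 1876 bp (1780 to 1992), 2062 bp (1990 to 2156) and 2098 bp (2012 to 2180). The highest score of any peak in a region with a broad peak did rise with region size. Its medians over regions were 37.0 (34.2 to 43.6), 41.4 (39.1 to 44.2) and 50.7 (46.6 to 54.7). A larger region offers more peaks from which the highest is taken.

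Within a class of region size, regions with a broad peak were longer and more fully covered. The number of peaks was not matched within a class. In regions of 5 to 9 its median was 7 (6 to 7) with a broad peak and 6 (6 to 6) without. In regions of 10 to 19 it was 13 (12 to 13) and 11 (10 to 13). Regions of 5 to 9 peaks spanned a median of 12091 bp (11366 to 12550) with a broad peak and 8218 bp (7730 to 8917) without, and peaks covered 55.9% (52.7 to 58.9) and 38.5% (36.0 to 40.2) of them. The wider peak itself adds to both values, and a larger number of peaks adds to the span. The narrower peaks of these regions had medians over regions of 14.3 (13.7 to 14.8) and 13.4 (12.7 to 14.2) in score, with overlapping intervals. In regions of 10 to 19 peaks the span was 22368 bp (21418 to 23650) with a broad peak and 18652 bp (15348 to 21276) without. The narrower peaks there were wider with a broad peak, at 522.5 bp (492 to 548) against 438 bp (404 to 484). Their scores were 15.0 (14.5 to 15.4) against 14.1 (12.6 to 14.9), with overlapping intervals. In the smaller classes the intervals of these widths overlapped. They were 470 bp (438.5 to 498) against 445 bp (412 to 481) in regions of 5 to 9. In regions of 2 to 4 they were 511 bp (442 to 590.5) against 454 bp (437 to 474). In the regions with both kinds, broad peaks held 52.4% of the covered bases and a median of 28.8% (27.7 to 30.1) of a region's span.

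On the chromosomes, X carried the highest share of broad peaks. There 291 of 1742 peaks in regions of 2 to 19 were broad (16.7%, 15.0 to 18.5), against 11.2% (10.5 to 12.0) on the other arms together, a difference of 5.48 percentage points (3.64 to 7.43). With a width threshold of 2000 bp the difference was 2.74 points (1.38 to 4.25). The shares were 12.1% on 3R (278 of 2296), 11.8% on 2R (246 of 2084), 10.2% on 2L (145 of 1420) and 10.1% on 3L (152 of 1510). Chromosome 4 had 1 broad peak among 10. The intervals of these other 4 large arms overlapped, and that of X lay above all of them. The difference was not tested beyond these intervals, which treat peaks as independent, and X was singled out after the shares had been seen.

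The share on X was higher in the middle-sized and large regions of the set. In regions of 5 to 9 peaks it was 17.7% (14.7 to 20.9) against 11.0% (9.83 to 12.3), and in regions of 10 to 19 it was 21.2% (18.3 to 24.4) against 14.5% (13.3 to 15.8). In regions of 2 to 4 peaks the intervals overlapped, at 7.66% (5.30 to 10.6) and 6.46% (5.40 to 7.66). Regions of 20 or more peaks showed no such gap, with 16.2% (13.4 to 19.5) on X and 16.3% (14.7 to 17.9) elsewhere. Over the 22 bins of 1 Mb on X that held 20 or more peaks the broad share was 16.1 ± 6.31% (SD over bins), and over 88 such bins on the other arms it was 9.86 ± 5.34%. The difference in means is about as large as the spread between bins.

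Peaks just under the threshold were not more frequent on X. Peaks from 1000 bp to the threshold made up 10.6% of the peaks on X (9.21 to 12.2) and 11.1% elsewhere (10.4 to 11.8). Those from 1500 to under 2000 bp made up 7.98% (6.75 to 9.35) and 5.25% (4.75 to 5.78), and those of 3000 bp or more 3.39% (2.59 to 4.35) and 1.76% (1.47 to 2.09). Peaks from 2000 to under 3000 bp differed less, at 5.34% (4.33 to 6.50) and 4.22% (3.77 to 4.71).

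More broad peaks did not mean stronger ones. Among the 5 large arms the median score of the broad peaks was highest on 2L, at 40.5 (37.1 to 45.8), and lower on X (33.5, 30.6 to 35.5) and 3R (32.6, 30.9 to 35.7). On 2R and 3L it was 34.6 and 35.3. Scores above 50 were given to 49 of the 145 broad peaks on 2L (33.8%, 26.2 to 42.1) and to 65 of the 291 on X (22.3%, 17.7 to 27.6). Median widths on these arms were close, from 2007.5 bp on 3R to 2164.5 bp on 3L. The narrower peaks of the same regions had similar scores on all 5 large arms, with medians of 13.97 to 15.05.

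**Figure D5:**
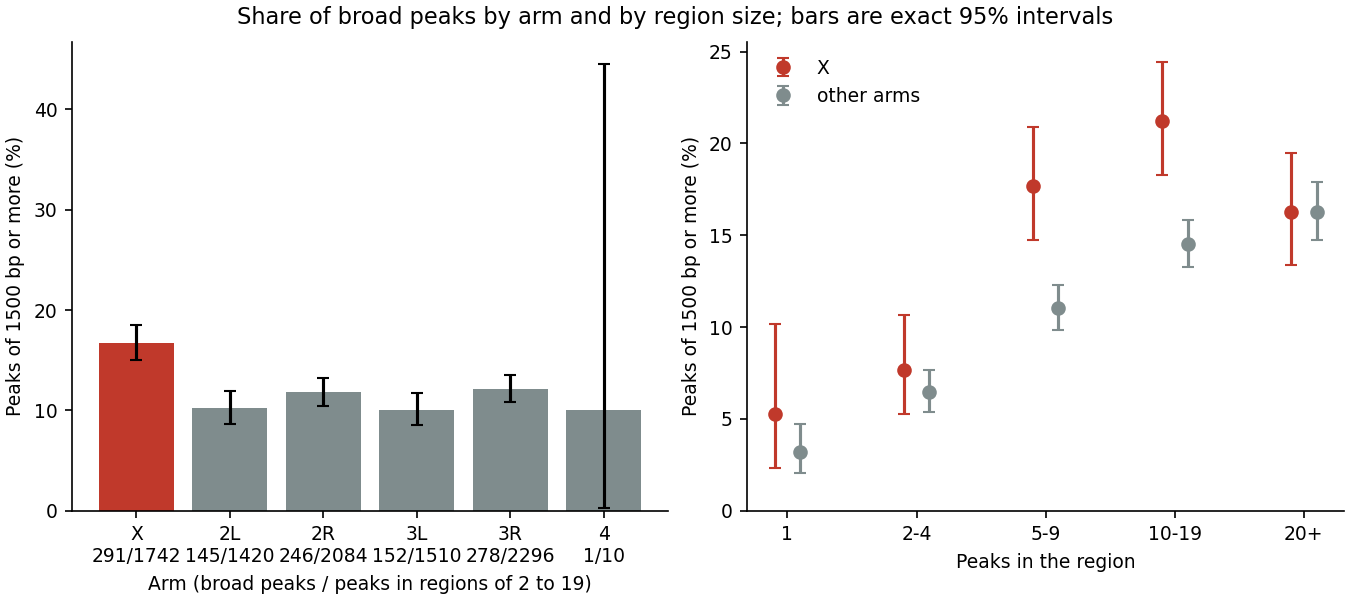
Left, share of peaks in regions of 2 to 19 that are broad (y axis, %) by arm, with the counts under each arm. Right, the same share on X (red) and on the other arms (grey) by the number of peaks in the region, with peaks alone (1) and regions of 20 or more (20+) for comparison. Bars are exact 95% intervals. X stands at 16.7% against 10.0% to 12.1% on the others, and the 2 sets meet at 16.2% and 16.3% in regions of 20 or more.

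Along the arms, the number of broad peaks per bin was uneven, as was the number of all peaks of the regions, which ran from 0 to 192 per bin. The 116 complete 1 Mb bins held 9.47 ± 7.38 broad peaks (SD over bins), and 10 bins held none. The most were found on 2R from 9 to 10 Mb (31 broad among 192 peaks of the regions), on 3L from 1 to 2 Mb (29 among 175), on 2R from 8 to 9 Mb (27 among 183) and on X from 8 to 9 Mb (25 among 99). The highest share, 32.1%, was on X from 5 to 6 Mb, with 17 of 53 peaks. From one broad peak to the next the median distance was 16194 bp (12996 to 19998).

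Broad peaks also occurred in the densest regions and as peaks that stand alone. The 444 broad peaks in regions of 20 or more had a median score of 37.9 (36.7 to 40.2) over a median of 2178 bp (2107 to 2304), both somewhat above the values of the 1113. In the lower width classes the medians came close, at 30.6 (27.8 to 34.9) against 30.3 (29.2 to 32.0) below 2000 bp and 37.4 (35.3 to 41.8) against 36.4 (34.9 to 38.1) from 2000 to under 3000 bp. At 3000 bp or more the median was 52.0 (45.2 to 57.5) in the densest regions and 44.5 (41.0 to 48.7) in the others, with overlapping intervals. The flanks were set apart more clearly. A broad peak in the densest regions had 5.81 ± 2.00 other peaks within 5000 bp (SD over 444 peaks), and peaks covered a median of 5143 bp of its flanks (4959 to 5334), against 3398 bp (3249 to 3510) for the broad peaks of regions of 2 to 19. The number of peaks in a region was part of the rule, so part of this difference is built in, and the size of that part was not tested. Broad peaks inside regions of 3 to 19 peaks, away from the ends, had 5.03 ± 1.76 other peaks (SD over 817 peaks). Their flanks had a median of 4013 bp covered (3801 to 4230). Only 32 broad peaks stood alone, with a median score of 37.0 (28.9 to 64.2). Too few were available to tell their scores from the others.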

How the data were processed

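The deposited file is 1 list of peaks. Per the file headers the peaks were made with MACS on FlyBase release 5. The submitters' processing notes name build BDGP5 and the tools MACS2, BWA and CASAVA, the last in versions 1.7.0.2 and 1.7.0.3. Not given in the sources used here are the peak threshold, the scale of the score and how replicates entered the calling. The score in the deposited list is the authors', and score per kb is that score divided by peak width in kb.

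Peaks were joined, measured and counted as described above. Members, comparisons and alternatives were chosen with earlier results of these data known. The peaks named are the 10 strongest broad peaks, the strongest of each arm, the 5 widest and the 5 highest and 5 lowest per kb. A count of 0 was given the limit of 3 counts. Share intervals are exact (Clopper-Pearson), median intervals come from order statistics, ratio bounds divide the far ends of both intervals, and the interval of a difference of shares is Newcombe's. No test over samples was possible. The functions were tested on simulated data. Values were computed in Python 3.11.15 with pandas 2.3.3, scipy 1.17.1 and numpy 2.4.6 and drawn with matplotlib 3.10.9. Planned descriptions of motifs and genes were not run, since the only gene table used here has release 6 coordinates.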

Additional observations from a re-analysis of the deposited data

How the results depend on the processing

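Of 58 values recomputed under other settings, 32 moved by less than their interval (for the count of peaks, by less than 1.5 times), 26 moved further and none of the score ratios or the excess on X reversed. For the position at an end and the number and width of flanking peaks, only the values of the broad peaks were recomputed, so their comparison with narrower peaks was not followed. With a width threshold of 2000 bp there were 590 broad peaks with a median score of 38.6, ratios to narrower peaks of 2.52 in score and 0.461 per kb, and an excess on X of 2.74 points. With 1000 bp there were 2110, with 29.6, 2.26 and 0.528, and a broad peak was strongest in 81.3% of regions. Joining within 2000 bp put 30.0% of broad peaks at an end of the region and gave them a median of 5 flanking peaks. Joining within 10000 bp gave 71.5% of regions with a broad peak on top, 19.7% at an end and a median width of next peaks of 581 bp. Regions of at most 9 peaks held 540 broad peaks, with 34.8% at an end, 3 flanking peaks and next peaks of 597 bp. Among the strongest 50% of peaks the score ratio was 1.64, 33.1% lay at an end, with 3 flanking peaks and next peaks of 1039 bp. The score ratio falls there by construction, since weak narrower peaks are gone. Taken as the median of ratios within regions, the ratio per kb was 0.525. Windows of 2000 and 10000 bp held 2 and 7 flanking peaks. The cause of the other moves was not tested. No paired analysis was possible because the list has no values per library, and leaving out a replicate could not be done for the same reason. The unknown depth limits which weak peaks, and which weak ends of broad peaks, could be called.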

Other observations

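Some stretches held many Insv peaks and no broad one, and were picked after their values had been seen. On 2L from 6 to 9 Mb none of 138 peaks in regions of 2 to 19 was broad, which allows a share of up to 2.17% when a count of 0 is taken to allow 3 counts. Those peaks had a median width of 431 bp, a largest width of 1489 bp and a median score of 12.2, with a highest score of 143.52. On 3L none of 53 peaks from 6 to 8 Mb and none of 44 from 12 to 14 Mb was broad, which allows up to 5.66% and 6.82% by the same limit.

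In the 148 regions where a narrower peak scored highest, that peak was itself fairly wide, with a median of 1019 bp (926 to 1073) and a score of 42.8 (39.1 to 45.4). It scored a median of 1.38 times the highest broad peak of its region (1.30 to 1.44) and lay a median of 2227.5 bp (1499 to 2756) from the nearest broad peak. These regions were picked by that order of scores, so the values describe them and support no comparison with other regions.

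The region with the most broad peaks, picked after its values had been seen, lay on X from 2012314 to 2066971. It held 8 broad and 9 narrower peaks, and the broad ones, with scores of 21.22 to 145.37, made up 49.3% of its 54658 bp. A region on X from 18520402 to 18556415 held 7 broad peaks among 17, and peaks covered 82.2% of it. Another with 7, among 18 peaks, lay on 3L from 3142617 to 3179313.

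Outside the main arms 1 broad peak was found by the same rule. It lay on Uextra, the collection of unplaced sequence, and had a score of 74.23 and a width of 2592 bp.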
